A study of Homo sapiens with 4 samples.

Results

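The data described here are the peaks that 4 CUT&RUN libraries of MV4;11 cells placed on chromosome 8. The members were all listed peaks whose chromosome was 8, 602 of the 6948 peaks in the 4 lists. The DMSO ASH1L list held 236 of them among 3092 peaks, and the AS-99 ASH1L list held 174 among 1829. For H3K36me2, the DMSO list held 133 of 1375 and the AS-99 list 59 of 652. Chromosome 8 was selected on its peak number and pileup in these same lists, which earlier results had shown to be high, so both are given as a description, with no test.

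MV4;11 is a human leukemia cell line in which the MLL1 gene is rearranged, and all 4 libraries came from this single line. AS-99 is a small-molecule inhibitor of the histone methyltransferase ASH1L. Cells were kept for 4 days with AS-99 at 5 µM or with the vehicle, DMSO at 0.25%, and were profiled with an antibody to ASH1L or to H3K36me2 (histone H3 dimethylated at lysine 36). Each of the 4 groups held 1 library, so no difference between groups has a replicate check, and the intervals given describe only counting error or how far peaks of a library spread. The libraries held between 13208636 (AS-99 H3K36me2) and 19635489 (DMSO ASH1L) fragments after filtering. Peak lists carry no expression values, so the identity of the cells was not checked against marker genes.

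In CUT&RUN, a nuclease is tethered to the antibody inside permeabilised cells, and the DNA fragments that it cuts free near the target are sequenced. ASH1L places methyl groups on lysine 36 of histone H3, a mark found over the bodies of active genes and in large intergenic domains. A locus yields fragments outside its peaks as well, and their number depends among other things on how many copies of the locus a cell carries, on base composition and on how uniquely reads map there. Gain of a whole chromosome 8 is a recurrent change in myeloid leukemias. The number of copies of chromosome 8 in these cells was not measured in the lists, and its part in the values below was not tested.

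Chromosome 8 carried more peaks per Mb than the other 21 autosomes together in every library. In the DMSO ASH1L list it held 1.65 peaks per determined Mb, against 1.11 on the other autosomes, a ratio of 1.49 (95% interval 1.30 to 1.71). With AS-99, the ASH1L densities were 1.22 and 0.641 peaks per Mb, a ratio of 1.899 (1.61 to 2.22). The DMSO H3K36me2 list had 0.931 peaks per Mb on chromosome 8 and 0.477 elsewhere, a ratio of 1.95 (1.62 to 2.33). The corresponding AS-99 H3K36me2 densities were 0.413 and 0.223, a ratio of 1.85 (1.39 to 2.42). Chromosome 8 makes up 5.32% of the determined autosomal sequence and held 7.75%, 9.65%, 9.88% and 9.42% of the autosomal peaks, in the order ASH1L with DMSO, ASH1L with AS-99, H3K36me2 with DMSO and H3K36me2 with AS-99. Values given below in runs of 4 follow this order.

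Among the 22 autosomes, chromosome 8 was the third in peaks per Mb in the DMSO ASH1L list and the second in each of the others. Chromosome 19 was the densest in every list, with 5.04, 2.40, 1.36 and 0.878 peaks per Mb, and chromosome 17 was the second in the DMSO ASH1L list with 1.92. Chromosomes 10, 11 and 12, the nearest to chromosome 8 in determined length, held 1.04, 1.06 and 1.104 peaks per Mb in the DMSO ASH1L list. Their densities were 0.564, 0.442 and 0.422 in the DMSO H3K36me2 list, so that none of the chromosomes of like length came near the 0.931 of chromosome 8. Chromosome 8 has 709 protein-coding genes, or 4.96 per determined Mb, and a GC content of 40.2%.

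**Figure D1:**
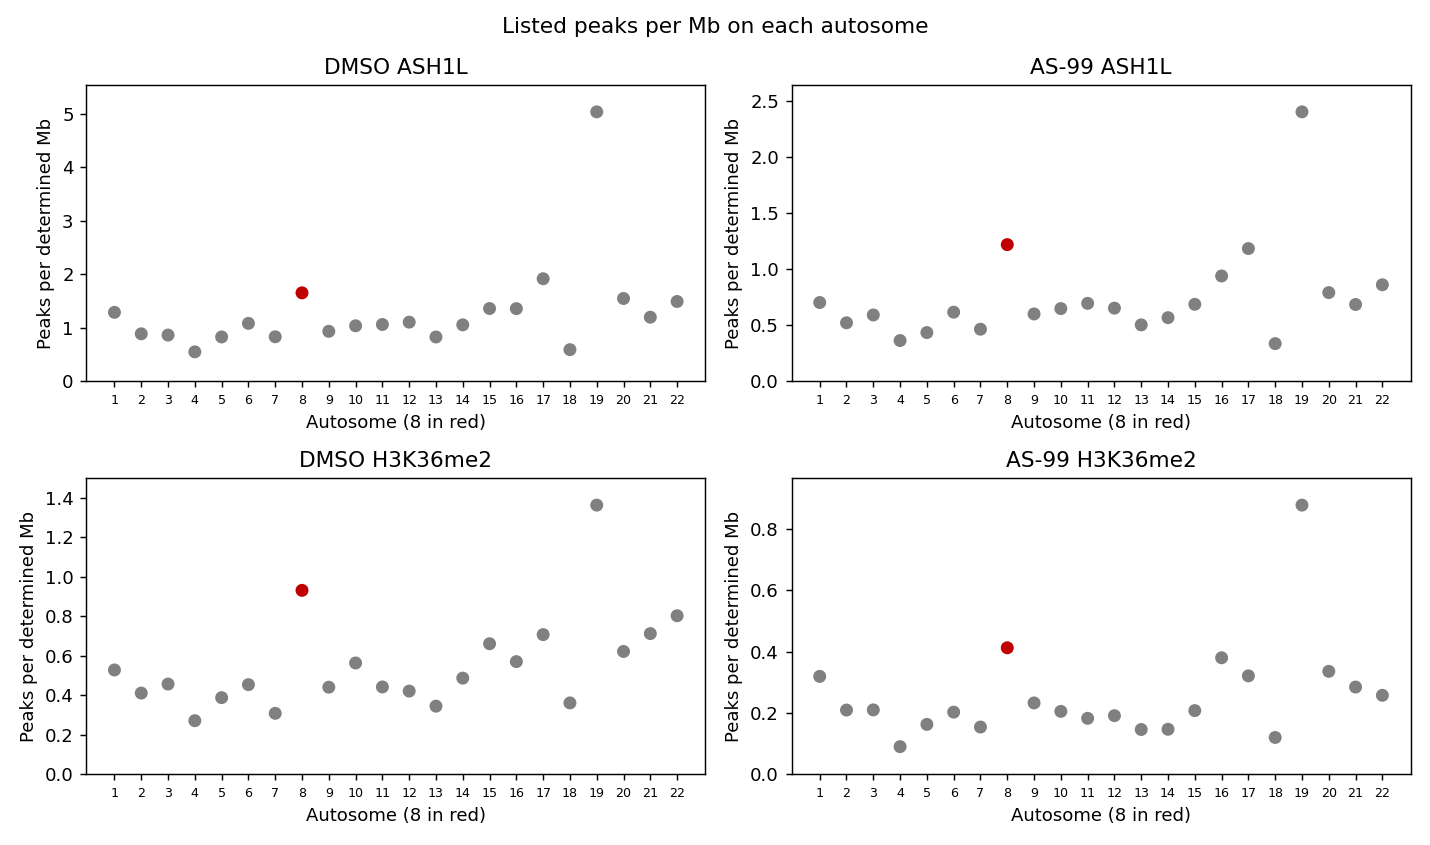
Peaks per determined Mb (y axis) on each of the 22 autosomes (x axis), 1 panel per library and 1 point per autosome, chromosome 8 in red. Chromosome 8 lies at 1.65, 1.22, 0.931 and 0.413 peaks per Mb in the 4 panels, below chromosome 19 in each and below chromosome 17 in the DMSO ASH1L panel.

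The peaks on chromosome 8 were also taller. Pileup is the number of fragments that cover a peak's summit, unscaled, and was therefore compared within a library only. The median pileup on chromosome 8 was 20 fragments in the DMSO ASH1L list, with quartiles of 17 and 24, compared with 16 on the other autosomes. In the AS-99 ASH1L list the medians were 18 and 14. For H3K36me2 they were 22 and 18 with DMSO, and 18 and 14 with AS-99. Chromosome 8 had the highest median of the 22 autosomes in each list, level with chromosome 19 at 20 fragments in the DMSO ASH1L list. Single peaks on chromosome 8 ran from 11 to 164 fragments (DMSO ASH1L), 9 to 140 (AS-99 ASH1L), and for H3K36me2 from 10 to 95 with DMSO and 11 to 99 with AS-99.

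The excess of peaks was not spread evenly over pileup. Among DMSO ASH1L peaks of 20 to 29 fragments, the density ratio of chromosome 8 to the other autosomes was 3.45 (2.80 to 4.22), whereas among those under 12 fragments it was 0.292 (0.0349 to 1.08), from 2 peaks. The same class of 20 to 29 fragments gave ratios of 6.34 for ASH1L with AS-99, 3.02 for H3K36me2 with DMSO and 8.47 for H3K36me2 with AS-99. By fold enrichment, the ratio was high at both ends. Below a fold of 4 it was 2.47 (1.82 to 3.29), 3.67 (2.33 to 5.58), 3.57 (2.67 to 4.70) and 3.09 (0.778 to 9.05). At a fold of 8 or more it was 4.74 (1.88 to 10.6), 4.24 (1.25 to 11.5), 4.10 (0.750 to 14.9) and 5.08 (1.22 to 16.2). These rest on 8, 5, 3 and 4 peaks on chromosome 8. Most of those in the DMSO ASH1L list, and all of those in the other lists, lay beside the centromere or at or nearest to REXO1L1, described below. The high ratio at this end therefore rests mainly on these few places.

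These tall peaks stood on a high local background. The background behind each peak, in fragments, was computed from its pileup and the deposited fold enrichment, which is pileup over background after 1 is added to each. Peaks were called without a control, so this background comes from the same library around the peak. It can include fragments of the peak itself and of its neighbours, and is not a measure of signal outside peaks alone. In the DMSO ASH1L list its median was 3.62 at chromosome 8 peaks and 2.61 at peaks of the other autosomes, a ratio of 1.39 (1.34 to 1.43). With AS-99, the ASH1L medians were 3.005 and 2.13, a ratio of 1.41 (1.39 to 1.46). The H3K36me2 medians were 4.75 and 3.29 with DMSO, a ratio of 1.44 (1.38 to 1.54), and 2.74 and 2.01 with AS-99, a ratio of 1.36 (1.29 to 1.5). Chromosome 8 had the highest median background of the 22 autosomes in every list except DMSO ASH1L, where chromosome 19 reached 3.73. In the DMSO H3K36me2 list, chromosome 6 came next with 3.64, a full fragment below chromosome 8.

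**Figure D2:**
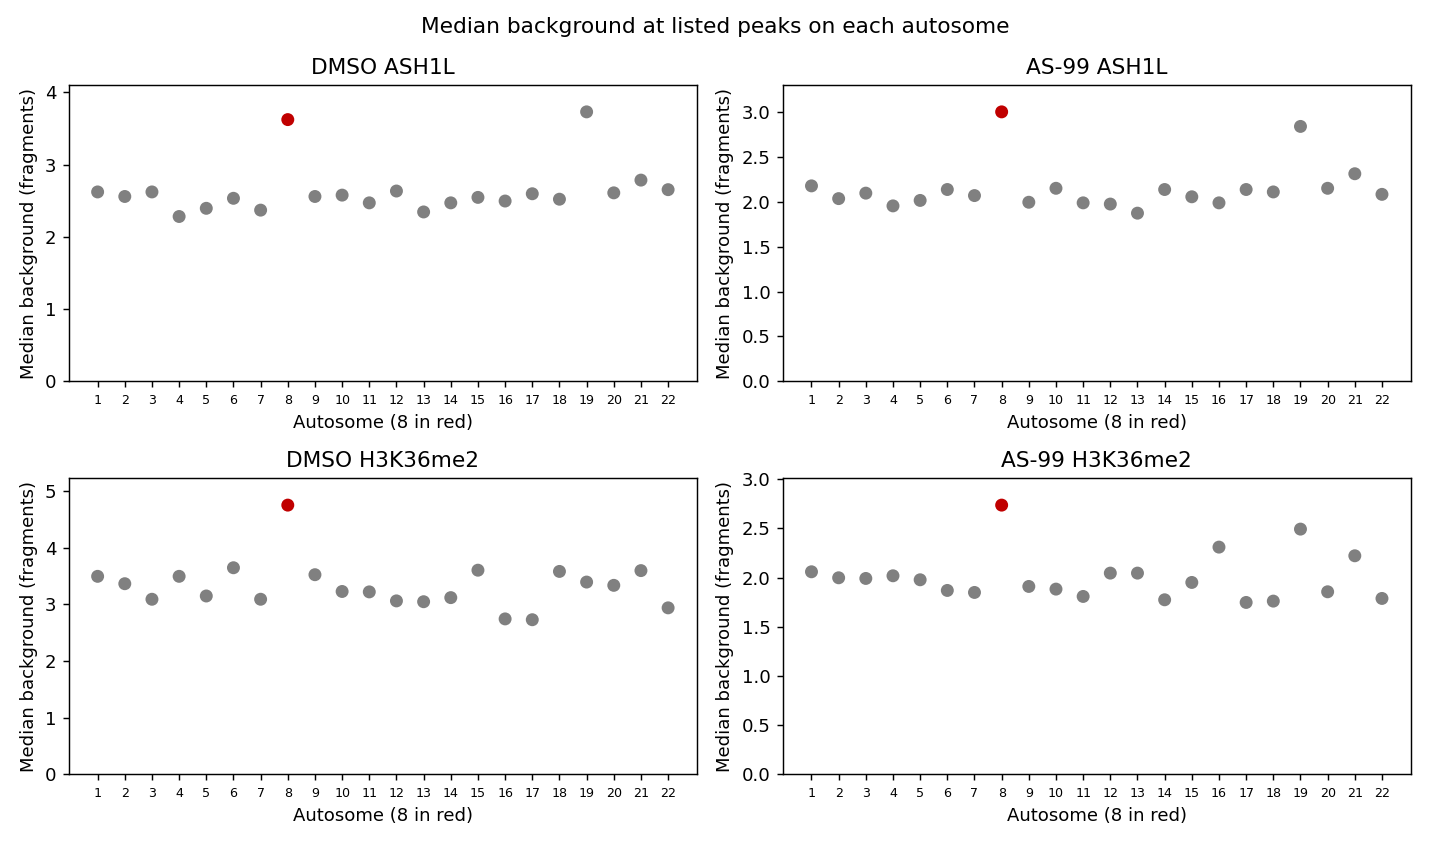
Median local background at listed peaks, in fragments (y axis), on each of the 22 autosomes (x axis), 1 panel per library, chromosome 8 in red. Chromosome 8 stands at 3.62, 3.005, 4.75 and 2.74 fragments, above every other autosome except chromosome 19 in the DMSO ASH1L panel.

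Relative to that background, the fold enrichment of the typical listed peak on chromosome 8 was no higher than that of others. The median fold enrichment was 4.56, 4.80, 4.03 and 4.99, compared with 4.70, 4.95, 4.47 and 5.07 on the other autosomes. It ranked 20, 19, 22 and 16 among the autosomes, thus last in the DMSO H3K36me2 list, and the few peaks with a fold of 8 or more are the exception given above. Every listed peak had passed a significance threshold against its own background. At a higher background that threshold takes a higher pileup and is met at a lower fold. The pileups, the pileup classes and the fold ranks are therefore not independent of the background. Each chromosome 8 pileup was then scaled down by the background ratio of its library, as an expectation over random (binomial) thinning of its fragments. Its background was divided by the same ratio, though not below the lowest value of the list. After this, 198 of 236, 140 of 174, 98.1 of 133 and 47.3 of 59 peaks were expected to reach the lowest listed significance. The density ratios were then 1.25, 1.53, 1.44 and 1.48. Only peaks already listed on chromosome 8 were scaled, so the ratios could only fall. They do not measure how much of the excess the background accounts for, and are not ratios corrected for copy number. Among DMSO H3K36me2 peaks with a fold enrichment of at least 5, of which 20 lay on chromosome 8, the density ratio was 1.13 and its interval, 0.680 to 1.77, included 1.

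Base composition differed as well. The median GC content of chromosome 8 peaks was 49.2%, 44.1%, 43.6% and 42.5%, against 54.1%, 48.5%, 44.3% and 46.3% on the other autosomes. Chromosome 19, the only autosome near chromosome 8 in ASH1L background, had peaks of 59.3% GC in the DMSO ASH1L list. The part of base composition in the background and in the peak number was not tested.

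The next question was whether the peaks gathered on 1 arm. The arms were split at the centromeric assembly gap, which leaves 43.7 determined Mb with 285 protein-coding genes on the short arm and 99.2 Mb with 424 genes on the long arm. The short arm held 77, 49, 48 and 19 peaks, and the long arm 159, 125, 85 and 40. The ratio of long-arm to short-arm density was 0.911 (0.689 to 1.21), 1.12 (0.802 to 1.60), 0.781 (0.542 to 1.14) and 0.928 (0.525 to 1.70). Each interval included 1, so a difference in density between the arms was not detectable at these peak numbers. Counted per protein-coding gene, the ratios were 1.39 (1.05 to 1.85) and 1.71 (1.22 to 2.44) in the 2 ASH1L lists. The H3K36me2 ratios on this scale were 1.19 (0.826 to 1.73) with DMSO and 1.42 (0.801 to 2.59) with AS-99, and both intervals included 1.

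Both arms shared the high background. On the short arm, the median background was 1.40, 1.41, 1.36 and 1.30 times that of the other autosomes. On the long arm the same ratios were 1.39, 1.41, 1.51 and 1.41.

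Along the chromosome the background was high nearly throughout, whereas the peaks were uneven. In windows of 10 Mb that held at least 5 peaks, the background exceeded the median of the other autosomes in 15 of 15 windows of the DMSO ASH1L list, with ratios from 1.15 to 1.65. In the AS-99 ASH1L list it did so in 14 of 14 windows (1.27 to 1.62), and in the AS-99 H3K36me2 list in 6 of 6 (1.30 to 1.53). The DMSO H3K36me2 list had 11 of 12 such windows above 1, and the exception, at 0.825, was the last window of the long arm, with 5 peaks. Among windows with fewer peaks, the one from 80 to 90 Mb, which includes REXO1L1, also lay below 1 for H3K36me2, at 0.506 with DMSO and 0.661 with AS-99, from 3 peaks in each list. In both, the median background of the window was the lowest value of the list. On the other autosomes, 36.7%, 44%, 50.9% and 51.9% of windows lay above 1.

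The window with the most peaks reached from 120 to 130 Mb, with 80 in the 4 lists together, among them 30 in the DMSO ASH1L list. It held peaks in or nearest to NSMCE2, MTSS1, MYC, TRIB1, ZHX2, SNTB1 and HAS2, and these names were read from the window after its count was seen. The window from 20 to 30 Mb on the short arm followed with 74 peaks, and the one from 130 to 140 Mb held 50. The window from 40 to 50 Mb, which contains the centromeric gap, held 49 peaks in its 6.99 determined Mb. Per determined Mb it was thus the third, at 7.01, after 8 and 7.4 in the first 2 windows and before 5 in the window from 130 to 140 Mb. The fewest peaks lay from 70 to 80 Mb, where the lists together held 14, and from 110 to 120 Mb, where they held 15. The longest stretch without a peak in any list ran over chr8:71446710-75113191 (hg19), 3.67 Mb with 18 protein-coding genes. No group of peaks under 10 kb apart held more than 2 of a list. Such groups held 6.78%, 5.75%, 7.52% and 3.39% of the chromosome 8 peaks, against 5.48%, 4.11%, 3.87% and 4.94% on the other autosomes.

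**Figure D3:**
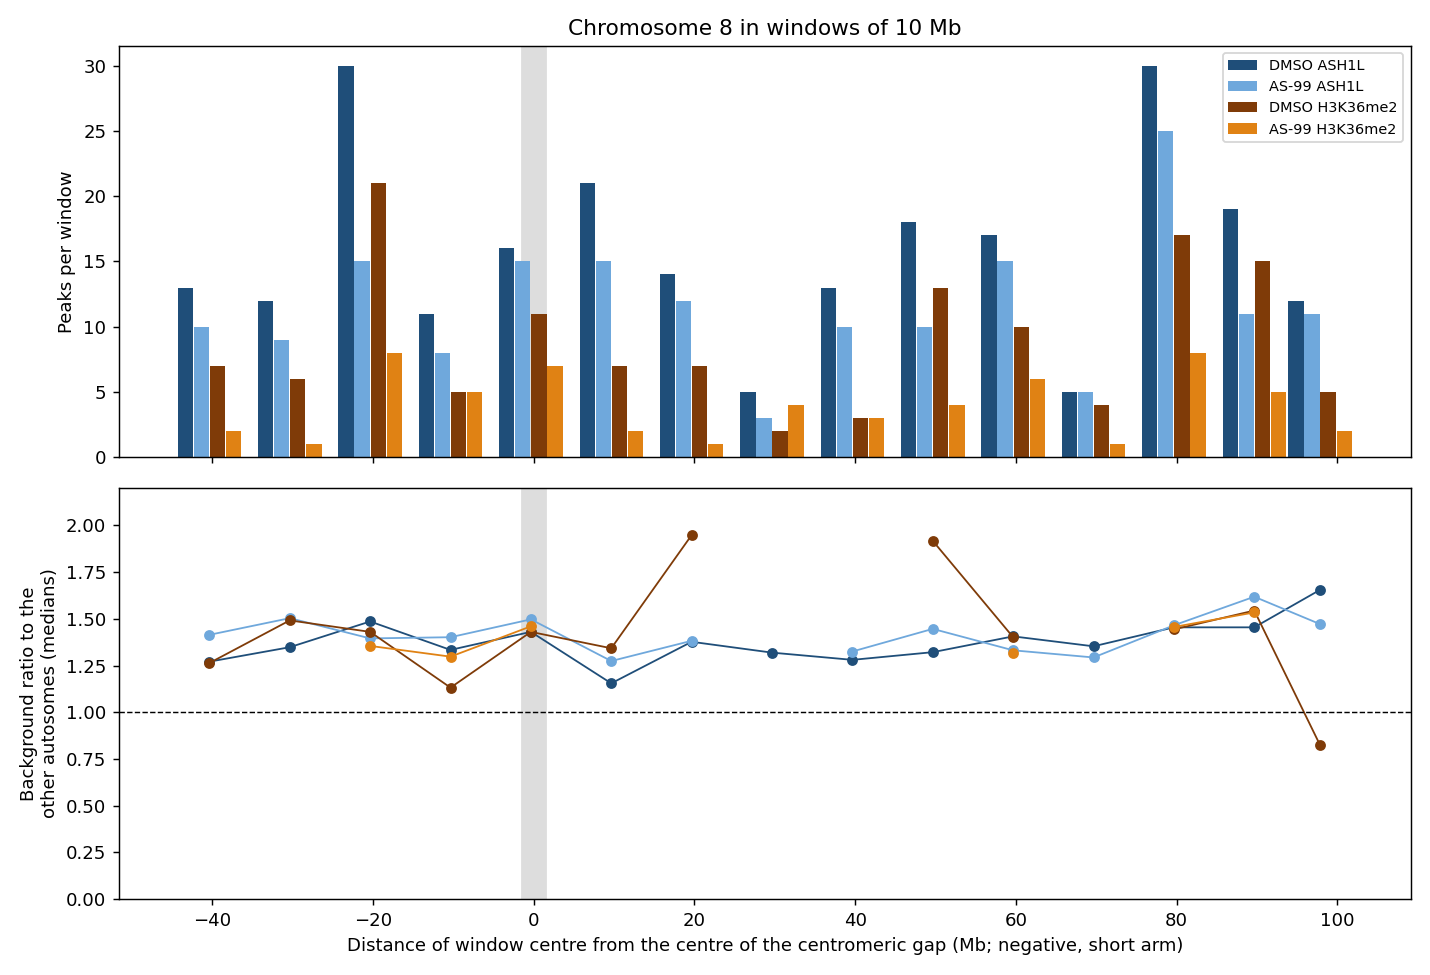
Number of peaks (upper panel) and ratio of the median background to that of the other autosomes (lower panel, windows with at least 5 peaks) in windows of 10 Mb, placed by the distance of their centre from the centre of the centromeric gap (grey), with 1 colour per library. Peak numbers vary from 1 to 30 per window, while all plotted background ratios but 1 exceed the dashed line at 1.

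Peaks of chromosome 8 lay more often in intergenic sequence and less often in promoters than those of the other autosomes, and the chromosome itself is composed in that way. Intergenic sequence makes up 56.7% of its bases, against 52.8% elsewhere, and promoters, taken as the bases within 1 kb of a gene's start, make up 0.925% against 1.33%. Intergenic sequence held 47.5%, 48.3%, 48.9% and 57.6% of the chromosome 8 peaks, compared with 34.7%, 39.1%, 46.6% and 42.9% of those on the other autosomes. The difference was 12.7 percentage points (6.20 to 19.3) for DMSO ASH1L, 9.13 (1.45 to 16.9) for AS-99 ASH1L and 14.8 (1.43 to 27.2) for AS-99 H3K36me2. For DMSO H3K36me2 it was 2.29 points (−6.51 to 11.2).

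Each class was therefore also counted per Mb of its own sequence, a scale chosen after the shares were seen. Intergenic peaks were 1.901 (1.55 to 2.31), 2.18 (1.72 to 2.74), 1.91 (1.45 to 2.47) and 2.32 (1.57 to 3.33) times as dense as on the other autosomes. For intronic peaks the ratios were 1.57 (1.23 to 1.98), 1.97 (1.501 to 2.54), 2.31 (1.75 to 2.9997) and 1.60 (0.962 to 2.53). Exons held only 14, 8, 5 and 2 of the peaks, with ratios of 2.11 (1.13 to 3.64), 2.04 (0.858 to 4.18), 2.11 (0.662 to 5.20) and 1.78 (0.205 to 7.02).

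Promoters held 32 of the DMSO ASH1L peaks on chromosome 8 (13.6%, against 25.9% elsewhere) and 16 of the AS-99 ASH1L peaks (9.20%, against 15.8%). Per Mb of promoter, the ratios were 1.13 (0.765 to 1.60) and 1.59 (0.895 to 2.63). No DMSO H3K36me2 peak lay in a promoter on chromosome 8, against 5.94% on the other autosomes. This allows a share of up to 2.26%, which is 3 counts of the 133, and the exact 95% interval reaches 2.74%. The density ratio per Mb of promoter was 0 (0 to 1.35) in that list. The AS-99 H3K36me2 list had 3 promoter peaks, or 5.08% against 10.6%, and a ratio of 1.28 (0.257 to 3.93). As shares, the promoter differences were −12.3 points (−16.5 to −7.14), −6.63 (−10.6 to −1.15), −5.94 (−7.41 to −2.88) and −5.50 (−9.86 to 3.62). All 4 intervals of the ratio per Mb of promoter included 1, so on that scale neither an excess nor a deficit against the other autosomes was detectable. In each list the promoter ratio was nevertheless below the intergenic ratio. With AS-99 the promoter intervals included the intergenic ratios of 2.18 (ASH1L) and 2.32 (H3K36me2), and with DMSO they did not include the intergenic ratios. The difference between these ratios was not tested. The median background of the DMSO ASH1L promoter peaks was 3.77 fragments on chromosome 8 and 2.72 elsewhere, so that the high background was present in promoters too.

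**Figure D4:**
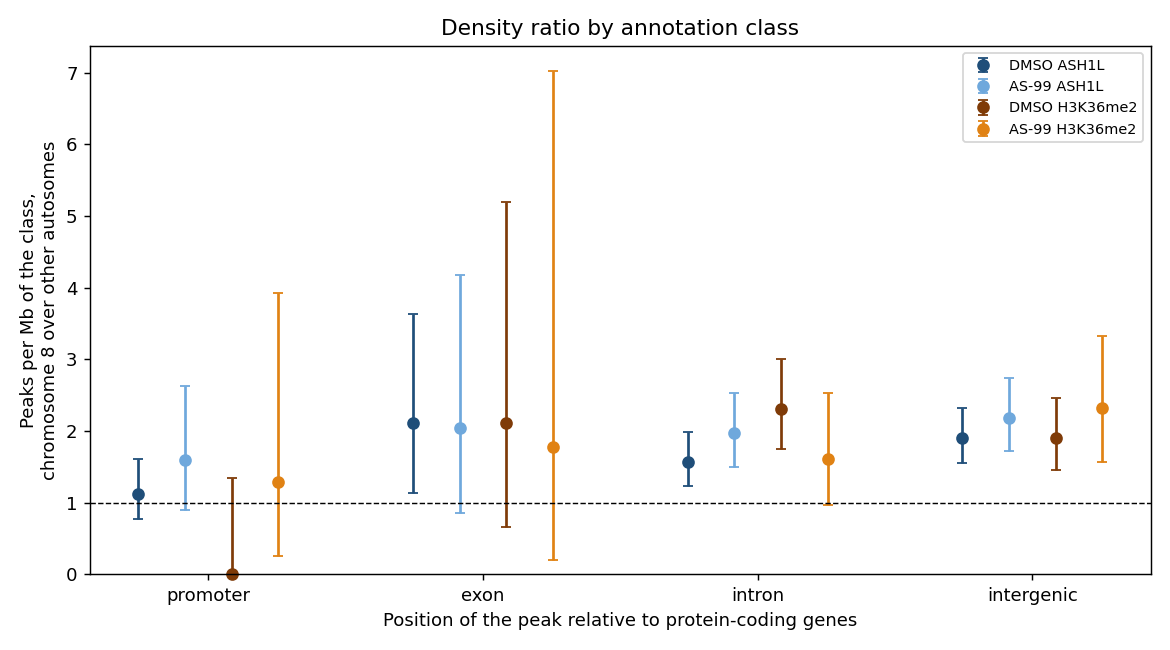
Ratio of peaks per Mb of each annotation class on chromosome 8 to that on the other autosomes (y axis) for peaks in promoters, exons, introns and intergenic sequence (x axis), with 1 colour per library and 95% counting intervals as bars. The intergenic ratios lie between 1.901 and 2.32 with intervals above 1, and the promoter ratios between 0 and 1.59 with intervals that include 1.

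Merging overlapping peaks gave 491 regions on chromosome 8, of which 403 were listed in 1 library, 71 in 2, 11 in 3 and 6 in all 4. The tallest of the regions in every list flank the centromere. The region chr8:46841411-46842275, on the long arm 2524 bp from the gap, had pileups of 164, 140, 95 and 99 fragments. It is intergenic, and the nearest protein-coding gene, SPIDR, which encodes a scaffold of homologous recombination repair, lies 1331627 bp away. Its counterpart on the short arm, chr8:43831124-43831683, lay 7205 bp from the gap, with 93, 73, 56 and 49 fragments and fold enrichments of 18.3, 16.6, 13.9 and 13.9. The nearest gene there is POTEA, of the primate POTE family, at 612742 bp. These were the 2 tallest peaks on chromosome 8 in each list, whichever the antibody or treatment. How uniquely reads map beside the gap was not tested, so the pileup of these peaks is uncertain and was not read as strong binding or marking. A further ASH1L peak, at chr8:43822261-43822609 with DMSO, had 63 fragments, and its AS-99 counterpart had 44. In the DMSO H3K36me2 list the third-tallest peak lay in an intron of ENPP2, the gene of the lysophospholipase autotaxin, with 41 fragments on a background of 11.5. Within 20 kb of an assembly gap of at least 50 kb lay 6, 6, 4 and 4 of the peaks, and within 1 Mb 31, 23, 10 and 7.

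The next shared regions lie at REXO1L1, a gene of a tandemly repeated family for which reads may come from several near-identical copies, so their pileup is uncertain. The exonic region chr8:86572115-86572720 had 29, 25, 23 and 30 fragments and fold enrichments of 10.6, 10.2, 9.002 and 13.3. The intergenic region chr8:86556415-86556885, 12045 bp from the gene, had 36, 27, 13 and 24 fragments. The background at the exonic peaks was low, 1.83, 1.54, 1.67 and 1.33 fragments, which were the lowest values in each library's list. They were shared by 4, 5, 4 and 3 chromosome 8 peaks and by 185, 166, 33 and 27 peaks of the other autosomes. A value so widely shared acts as a floor and is not a local measurement, and the fold enrichments at these peaks rest on it.

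The last regions found in every list were of ordinary height. The region chr8:97632775-97633928 lies 9333 bp from SDC2, which encodes the cell-surface proteoglycan syndecan-2, and had 24, 24, 38 and 18 fragments. The region chr8:122340528-122340924, nearest to the hyaluronan synthase gene HAS2 at 283630 bp, had 17, 17, 13 and 16 fragments. Per fragment sequenced, these values were 8.66, 11.1, 8.34 and 12.1 fragments per 10000000, the lowest, or level with the lowest, of the regions in all 4 lists.

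**Figure D5:**
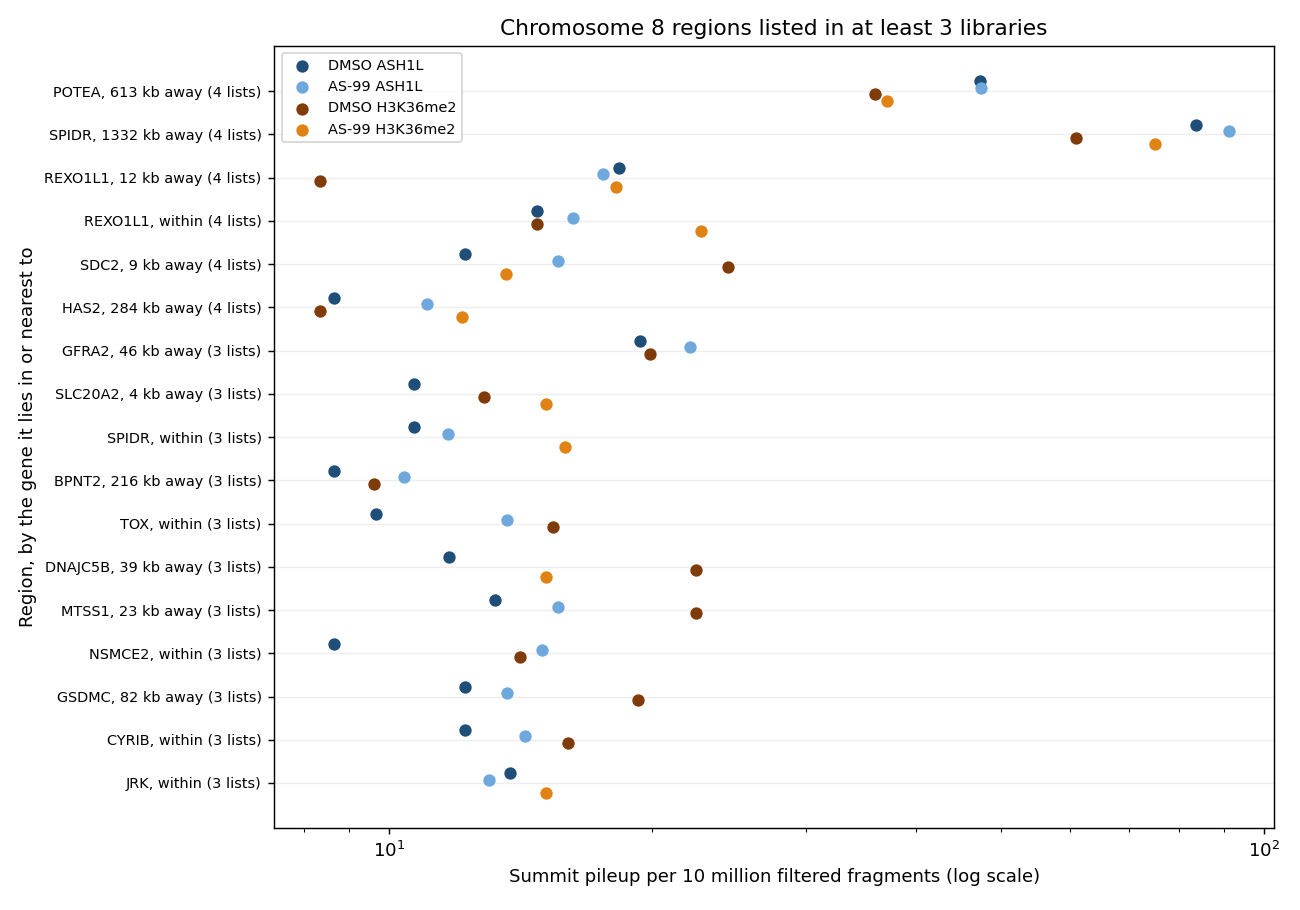
Summit pileup per 10000000 filtered fragments (x axis, log scale) at the 17 chromosome 8 regions listed in at least 3 libraries (y axis, named by the protein-coding gene within or nearest, with the distance), 1 colour per library. The regions beside the centromere, named by POTEA and SPIDR, reach between 35.9 and 91.0, above all other regions, which stay at 24.4 or lower.

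Of the 11 regions in 3 lists, 7 were shared by both ASH1L libraries and the DMSO H3K36me2 library. One of these lay within TOX, which encodes a nuclear factor of lymphocyte development, at chr8:59956277-59956900, with 19, 21 and 24 fragments. Another, within NSMCE2, the SUMO ligase gene of the SMC5/6 complex, had 17, 23 and 22. A region within CYRIB, whose product restrains RAC1 signalling to actin, had 24, 22 and 25. The tallest was 46035 bp from GFRA2, a receptor gene for the neurotrophic factor neurturin, with 38, 34 and 31 fragments. The others lay nearest to MTSS1, which encodes an actin and membrane-binding protein, the gasdermin gene GSDMC and the Golgi phosphatase gene BPNT2. Regions in 3 lists that included AS-99 H3K36me2 lay within SPIDR and within JRK, a gene for a DNA-binding protein, and nearest to the phosphate transporter gene SLC20A2 and the chaperone gene DNAJC5B. The region within SPIDR, chr8:48282013-48282791, had 21 (DMSO ASH1L), 18 (AS-99 ASH1L) and 21 (AS-99 H3K36me2) fragments, with fold enrichments of 4.78 to 5.32.

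Peaks reached many genes of chromosome 8. A gene was counted as reached when a peak overlapped its body or the 5 kb on either side. In the DMSO ASH1L list 131 of the 709 genes were reached (18.5%), against a background of 12.9% of all autosomal genes. With AS-99, ASH1L peaks reached 91 genes (12.8%, against 6.88%). The H3K36me2 peaks reached 62 genes with DMSO (8.74%, against 4.2%) and 29 with AS-99 (4.09%, against 2.3%). At least 1 list reached 213 genes, or 30.04% against 20.4%, at least 2 lists reached 70, or 9.87% against 4.65%, and at least 3 lists reached 24, or 3.39% against 1.03%. These shares repeat the excess of peaks that chose the chromosome and are not a further result.

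The genes with the most peaks were long. CPQ, which encodes the secreted carboxypeptidase Q and spans 504 kb, had 10 peaks in the 4 lists, 6 of them from the DMSO H3K36me2 library. Those 6 had between 20 and 37 fragments on a background of 5.50 to 9.03, above the 4.75 that was the median of that list on chromosome 8. NSMCE2 had 9 peaks, 4 from DMSO ASH1L, and SPIDR had 9, of which 3 came from each AS-99 library. TG, the thyroglobulin gene, had 8 peaks and CYRIB had 7. These 5 genes and REXO1L1 were reached in each of the 4 lists, 0.846% of the 709 against a background of 0.135%. Per 100 kb of gene and flanks, the 5 genes with the most peaks held between 1.85 (SPIDR) and 3.73 (CYRIB) peaks.

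Among chromatin and transcription regulators of chromosome 8, 12 of 32 listed genes (37.5%) had a peak in at least 1 list, and 6 did so in at least 2, beside 30.04% and 9.87% of all 709 genes. ASH2L, a core subunit of the MLL-family methyltransferase complexes, had an intronic ASH1L peak in both treatments, with 27 fragments with DMSO and 26 with AS-99. The AS-99 ASH1L list placed a further peak of 30 fragments on its promoter. KAT6A, a histone acetyltransferase gene that is fused to other genes in some myeloid leukemias, had an intronic peak of 25 fragments in both DMSO libraries and none with AS-99. The MYC promoter had a DMSO ASH1L peak of 25 fragments with a fold enrichment of 3.95, and no peak of the other lists lay within 5 kb of this oncogene. ZHX2, a transcriptional repressor gene, was reached in 3 lists by peaks at separate positions, with 18, 23 and 27 fragments.

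Of the Integrator complex, which processes small nuclear RNAs and attenuates transcription, INTS10 had a promoter peak of 22 fragments in both ASH1L lists. INTS9 had a DMSO ASH1L promoter peak of 26 fragments and an intronic AS-99 H3K36me2 peak of 15, and INTS8 an intronic AS-99 ASH1L peak of 18. NBN, a gene of DNA break repair, had an intronic DMSO ASH1L peak of 31 fragments, and the helicase gene RECQL4 a DMSO ASH1L promoter peak of 22. Other repair genes of the list, WRN, TONSL, PRKDC and ESCO2, had no peak within 5 kb. The others reached were CHD7, a chromatin remodeler gene (DMSO ASH1L, 15 fragments), ZNF703 (DMSO H3K36me2, 19) and TRPS1, a GATA-type repressor gene (20 with DMSO H3K36me2 and 15 with AS-99 H3K36me2, at separate positions). No peak lay within 5 kb of NSD3, which encodes another H3K36 methyltransferase, or of RUNX1T1, RAD21 or MCM4.

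Genes with roles in blood and immune cells were reached in 14 of 31 cases (45.2%), 5 of them in at least 2 lists, beside the same 30.04% and 9.87% of all genes. The adaptor gene DOK2 had a promoter peak in both AS-99 libraries, with 23 fragments for ASH1L and 21 for H3K36me2, and in neither DMSO library. PAG1, a lipid-raft adaptor gene of lymphocyte signalling, had an intronic ASH1L peak at the same place with DMSO (22 fragments) and AS-99 (20), and a DMSO H3K36me2 peak of 30 fragments beside it. ANGPT1, a TIE2 ligand gene, had an intronic ASH1L peak of 18 fragments in both treatments. The AS-99 ASH1L library listed a promoter peak of 20 fragments at the NF-κB kinase gene IKBKB and an exonic peak of 17 at the receptor kinase gene FGFR1. CEBPD, a myeloid transcription factor gene, had an AS-99 H3K36me2 peak of 18 fragments within 5 kb, which lay in an intron of the neighbouring SPIDR. ANK1, an erythroid membrane protein gene, had a peak of 16 fragments in the AS-99 ASH1L and DMSO H3K36me2 lists, at separate positions. Besides TOX, the list also reached BLK, CTSB, TPD52, ASAP1 and NDRG1 (DMSO ASH1L) and TNFRSF10D (DMSO H3K36me2), while LYN, IL7 and LY96 had none. BAALC, a gene highly expressed in some acute leukemias and named here after its values were seen, had an intronic peak with AS-99 in both the ASH1L (23 fragments) and H3K36me2 (19 fragments) lists at the same position, and a DMSO H3K36me2 peak of 22 fragments at another position in an intron.

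Promoters were also counted by gene. DMSO ASH1L peaks reached the promoters of 36 genes, 5.08% of the 709 against a background of 4.82% of autosomal genes, and AS-99 ASH1L peaks those of 18, 2.54% against 1.63%. The H3K36me2 peaks reached none with DMSO, against 0.432%, and 3 with AS-99, 0.423% against 0.385%. At least 1 list reached 51 promoters, or 7.19% against 6.46%. Promoters of 6 genes held a peak in at least 2 lists, 0.846% against 0.733%, and none did so in 3, against 0.0728%. Besides INTS10 and DOK2, these were CRH, the corticotropin-releasing hormone gene (26 fragments with DMSO ASH1L and 14 with AS-99 ASH1L), and ST18, a zinc-finger gene (23 with DMSO ASH1L and 22 with AS-99 H3K36me2). NDUFB9, a respiratory complex I subunit gene, and TATDN1 are transcribed in opposite directions from starts at 125551342 and 125551699. The genes overlap between these starts and shared 1 peak of 20 fragments in each ASH1L list.

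To examine how AS-99 related to the peaks of chromosome 8, the lists of each antibody were compared. For ASH1L, 174 peaks with AS-99 against 236 with DMSO gave a ratio of 0.737 (0.603 to 0.901), compared with 0.580 (0.545 to 0.617) on the other autosomes. Divided by filtered fragments the chromosome 8 ratio was 0.941 (0.769 to 1.15), and that of the other autosomes 0.740. For H3K36me2, 59 peaks against 133 gave 0.444 (0.321 to 0.607), compared with 0.467 (0.422 to 0.517). Divided by filtered fragments, these were 0.523 (0.378 to 0.716) on chromosome 8 and 0.552 on the other autosomes. The H3K36me2 number did not hold this direction among peaks with a fold enrichment of at least 5, where 28 AS-99 and 20 DMSO peaks gave 1.40 (0.761 to 2.62). On the short arm the ASH1L ratio was 0.636 and the H3K36me2 ratio 0.396, and on the long arm they were 0.786 and 0.471.

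The share of autosomal ASH1L peaks that lay on chromosome 8 was 1.9 percentage points (0.273 to 3.60) higher with AS-99 than with DMSO. For H3K36me2 the difference was −0.456 points (−3.12 to 2.49), which was not detectable at these peak numbers. Scaled to 10000000 fragments, the median ASH1L background on chromosome 8 was 1.85 with DMSO and 1.95 with AS-99, and on the other autosomes 1.33 and 1.38. The scaled H3K36me2 background was lower with AS-99 on chromosome 8, 2.07 against 3.05, and on the other autosomes, 1.52 against 2.11.

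Few peaks were found again under the other treatment. Of the 236 DMSO ASH1L peaks on chromosome 8, 47 were overlapped by an AS-99 ASH1L peak, or 19.9% (15.02% to 25.6%), against a background of 12.8% of the whole list. On the other autosomes the share was 11.9%, a difference of 8.03 points (3.27 to 13.7). The pileup moved with this difference: within classes of pileup the shares were closer, 6.06% and 6.51% under 16 fragments, 12.7% and 9.43% from 16 to 19, 24.1% and 21.4% from 20 to 29, and 50% and 56.5% from 30. At the 47 matched places, the AS-99 pileup per fragment was the higher in 33, with a median log2 ratio of 0.21 (0.12 to 0.30), and on the other autosomes the median was 0.16 (0.12 to 0.23). A place was matched only if both libraries listed it, and the AS-99 library was the shallower. Being listed there took more pileup per fragment, so these ratios are not free of that selection and were not read as a treatment effect.

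For H3K36me2, AS-99 peaks overlapped 15 of the 133 DMSO peaks, or 11.3% (6.45% to 17.9%), against a background of 9.67% of the list. The difference from the other autosomes, 3.03 points, had an interval of −1.61 to 9.68. The 15 pairs had a median log2 ratio of pileup per fragment of 0.15 (−0.39 to 0.30), with AS-99 the higher in 9. The limit given for the ASH1L pairs holds for them too, since the AS-99 library was again the shallower.

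Both antibodies met at a minority of places. With DMSO, ASH1L peaks overlapped 27 of the 133 H3K36me2 peaks on chromosome 8, or 20.3% (13.8% to 28.1%), against a background of 19.4% of the list and 18.1% on the other autosomes. With AS-99, it was 18 of 59, or 30.5% (19.2% to 43.9%), against a background of 22.2%. Seen from the ASH1L lists, the same places were 11.4% of the 236 DMSO peaks, against a background of 8.64%, and 10.3% of the 174 AS-99 peaks, against 7.87%. The difference in H3K36me2 shares from the other autosomes was 2.25 points (−4.13 to 10.1) with DMSO and 11.3 points (0.466 to 24.3) with AS-99. The second did not hold its direction among peaks whose −log10 p was 10 or more, where it was −5.66 points (−19.3 to 13.0). Overlapped peaks were the taller: with AS-99 their median pileup was 20.5 fragments against 17 for the rest, and with DMSO 24 against 22.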

How the data were processed

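CUT&RUN was profiled in 4 libraries, 1 per group. Reads had been mapped to hg19 with Bowtie2 per the methods text. Per the file headers, the authors called peaks in each library with MACS 2.1.0.20150731 without a control (q-value threshold 0.01, local background window of 10 kb), whereas the methods text names another version and a p-value threshold. The labels were followed for the dose of AS-99, which that text sets a little higher; it also describes merged replicates, so a library may pool cultures. The deposited signal is the summit pileup, unscaled. The deposited −log10 p and q-values compare it with the background by a Poisson model. In the deposited fold enrichment, 1 was added to pileup and background before their ratio was taken. Positions are other columns, counted from 1.

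The background was (pileup + 1) / fold − 1, and a Poisson model with it returned the deposited −log10 p for 100% of peaks within 0.01. Densities used determined bases of GRCh37, which has the chromosome lengths of hg19, and arms were split at the centromeric gap. Genes were protein-coding genes of GENCODE 44 mapped to GRCh37. Bases were assigned to promoter, exon, intron and intergenic sequence in that order, without assembly gaps of at least 50 kb, and a peak was counted in a promoter if it overlapped one and otherwise by its summit. An overlap of 1 bp or more made peaks shared. Ratios of counts carry exact conditional binomial 95% intervals, shares exact Clopper-Pearson intervals, differences of shares Newcombe intervals, and medians order-statistic intervals. The interval of a background or pileup ratio takes the other autosomes' median as fixed. The sources used here name no molecular identifiers, so fragments may not be independent molecules. Scripts were tested on simulated data and run in Python 3.11.15 with pandas 2.3.3, NumPy 2.4.6 and SciPy 1.17.1.

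The chromosome and both gene lists were chosen with earlier results of these data known. Genes were named when nearest to the 3 chromosome 8 peaks of highest pileup or fold in a list, at a region in at least 3 lists, among the 5 genes with most peaks, on a gene list with a peak, or with a promoter peak in at least 2 lists. Outside these rules, BAALC and some genes of the window with the most peaks were named after their values were seen. Some members of the gene lists without a peak were named too. Alternatives tried were stricter thresholds (−log10 p of at least 10, fold of at least 5), leaving out peaks within 1 Mb of gaps of at least 50 kb or chromosome ends, leaving out regions in all 4 lists, other denominators and comparison chromosomes, and other overlap rules. No sequence is printed.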

Additional observations from a re-analysis of the deposited data

Results flagged for a closer look

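The AS-99 to DMSO change in the chromosome 8 share of autosomal peaks went opposite ways for the antibodies. The share was 1.9 percentage points higher with AS-99 for ASH1L, 9.65% against 7.75%, and −0.456 points different for H3K36me2, 9.42% against 9.88%. The difference between the antibodies was not tested, since each group held 1 library, and the H3K36me2 interval of −3.12 to 2.49 spans 0.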

How the results depend on the processing

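Of 146 recomputed values, 118 stayed within the spread of the reported value, 26 moved beyond it, and 2, whose reported interval did not include the value of no difference, took the opposite direction. Among the rest, 9 also lay on the opposite side of no difference, which their reported interval included: 8 ratios of long-arm to short-arm density, at 1.03 to 1.42, and the H3K36me2 retention difference. Peaks with a −log10 p of 10 or more gave a density ratio of chromosome 8 to the other autosomes of 2.14 (DMSO ASH1L), 2.96 (AS-99 ASH1L) and 3.16 (AS-99 H3K36me2), a pileup ratio of 1.17, 1.16 and 1.11 in these lists, and a background ratio of 1.30 (DMSO ASH1L) and 1.39 (AS-99 ASH1L). The H3K36me2 number ratio was 0.625, its retention difference −0.754 points with an interval spanning 0, and the AS-99 difference in H3K36me2 peaks with ASH1L −5.66 points. With a fold enrichment of at least 5, the density ratio was 1.49 (AS-99 ASH1L) and 1.13 (DMSO H3K36me2), the DMSO H3K36me2 background ratio 1.33, the H3K36me2 number ratio 1.40, its retention difference 11.98 points and the DMSO difference in H3K36me2 peaks with ASH1L 21.3 points. Both thresholds leave fewer peaks, and the cause was not tested. Per protein-coding gene, the density ratios were 2.19, 2.79, 2.86 and 2.72, since chromosome 8 has few genes per base, and the long-arm to short-arm ratios 1.39, 1.71 and 1.19 (DMSO H3K36me2). Per fragment, the ASH1L number ratio was 0.941, because the DMSO library was deeper. With chromosome 8 pileup and background scaled down, the density ratios were 1.25, 1.53, 1.44 and 1.48, and intergenic peaks alone gave a DMSO H3K36me2 background ratio of 1.37. Per determined Mb of the whole chromosome, the annotation class ratios were 0.782, 1.103, 0 and 0.889 for promoters and 2.04, 2.34, 2.05 and 2.49 for intergenic peaks. The denominator of the annotation classes, the scaling, the comparison without chromosome 19 and all alternatives for the background were chosen after seeing the data. The density ratio stayed above 1 under every alternative run. At a fold of at least 5 its DMSO H3K36me2 interval, 0.680 to 1.77, included 1. Every alternative reused the peaks on which the chromosome was chosen, so this is no independent support for an excess. No paired analysis was possible because there was only 1 library in each group. Depth limits all values, since median peaks on chromosome 8 rested on 18 to 22 fragments.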
